A study of Homo sapiens with 14 samples.

Results

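Staufen proteins and the factors of nonsense-mediated decay act in linked pathways of mRNA turnover. The exons and splice sites of 9 of their genes were followed here in a human cell line of embryonic kidney origin, HEK293T, with and without a mutant SF3B1. The genes were STAU1 and STAU2, UPF1, UPF2, UPF3A and UPF3B, and SMG1, SMG5 and SMG6. Every splice event of these genes with a mean of at least 10 junction reads was a member, without regard to its level or its difference. Of 169 events of the 9 genes, 154 reached this minimum, out of 94061 of 114349 events in the whole table. They were 114 skipped exons, 32 pairs of exons counted as mutually exclusive, 5 alternative 3′ splice sites, 2 alternative 5′ splice sites and 1 retained intron.

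RNA-Seq libraries of total RNA came from WT cells, which keep the lysine of SF3B1 and are labeled K700K, and from MT cells, which carry the K700E change from lysine to glutamic acid, 3 libraries each. The study describes the pair as isogenic lines with the mutation at the endogenous locus, and how many clones stand behind each genotype is not given in the sources used here. The labels name no treatment. SF3B1 is the subunit of the U2 small nuclear ribonucleoprotein that helps it bind the branch point before the 3′ splice site. Its hotspot mutants are known to favor cryptic 3′ splice sites upstream of the usual ones. Libraries of 1 genotype are numbered replicates. Nothing in the sources says that they were separate cultures, so the tests measure the spread between these libraries, which may be technical.

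Staufen proteins bind double-stranded RNA through repeated domains. They carry mRNAs to their sites of translation, and on some target mRNAs they recruit UPF1, a route called Staufen-mediated decay. In nonsense-mediated decay, UPF1 is the RNA helicase at the center. UPF2 links it to UPF3A or UPF3B, which contact the exon junction complex left by splicing. SMG1 is the kinase that phosphorylates UPF1, SMG6 is an endonuclease that cuts the target, and SMG5 is an adaptor that draws in further decay enzymes. Transcripts of several of these factors are themselves targets of nonsense-mediated decay.

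The table gives an inclusion level for each event and library. This fraction is the share of the form with the exon, the added stretch or the intron, after junction reads are divided by the length over which each form can be counted. For a pair of exons counted as mutually exclusive it is the share of the exon that comes first in the transcript. Where both exons of a pair are included, this share compares their reads and is no choice between them. Over the 118 member events whose reads could be recovered in all 6 libraries, the junction reads summed to between 7419, in MT 1, and 13648, in MT 3. The WT libraries had sums of 9138, 11157 and 11483 reads. Libraries differed by more than genotype. The first principal component of the levels of all 83581 tested events held 24.5% of the variance, with WT 1, WT 3 and MT 1 on one side and WT 2, MT 2 and MT 3 on the other. With 6 libraries the components are few, and an even split would give each a share not far below this. WT 2 and WT 3 lay nearest the cut, at 0.185 and −0.183, so the sides are a description and no known batch. Over the 5351 tested alternative 3′ splice sites, the first component held 24.2% and had the 3 WT libraries on one side and the 3 MT libraries on the other. Events that do not overlap between the genotypes or that differ most in their gene are therefore, for most of them, also given within each side. Where the genotypes do not overlap, the sign within each side is fixed by that, and only the size can vary. Many member events share reads: 32 of the 154 had the same exclusion reads as another event, so events of a gene are not independent of each other.

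Splice site sequences are shown first for the STAU1 event that had the smallest p among the 9 genes, since its difference is a choice between both sites. STAU1 lies on the minus strand of chromosome 20 (GRCh38, chr20:49113339-49188367). A coding exon of this gene can begin at an upstream or at a downstream 3′ splice site 18 bp apart. Each window below runs 5′ to 3′ on the transcript strand, from 27 intron bases to 3 exon bases, with the AG that ends the intron in capitals.
Upstream site, chr20:49124603-49124632: aataagtgtctgtccgctttcactcAGtct
Downstream site, chr20:49124585-49124614: ttcactcagtctttccctctgaaacAGgtg
Bases added by the upstream site, chr20:49124588-49124605: TCTTTCCCTCTGAAACAG
The added stretch keeps the reading frame. Of 9 annotated STAU1 transcripts, 3 use the upstream and 5 the downstream site. The 20 bases before the AG held 15 pyrimidines and 1 adenine at the upstream site, and 14 pyrimidines and 4 adenines at the downstream site. Over all 5351 tested alternative 3′ splice sites the median was 14 pyrimidines at either site, with quartiles of 13 and 16 upstream and 12 and 15 downstream. In the downstream window, most of these bases are the added stretch itself.

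The forward qPCR primers that the study designed for each STAU1 form span this junction, and are shown because they mark the same choice of site. Bases of the upstream exon are in lower case and bases after the junction in capitals.
Primer for the upstream site form: tgaatttcgagTCTTTCCCTCTGA
Primer for the downstream site form: tgaatttcgagGTGGCCCG
Each has 11 bases in the upstream exon, followed by 13 bases after the junction in the first and 8 in the second. The table gives the same junctions by read counts. In WT, 18 reads supported the upstream site and 232 the downstream site in replicate 1, 47 and 264 in replicate 2, and 19 and 199 in replicate 3. In MT, the reads were 31 and 182 in MT 1 and 91 and 176 in MT 2. The count of MT 3 is cut short in the table, and only its level is known.

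Use of the STAU1 upstream site was low in WT cells and had a higher mean in MT cells. Its levels were 0.061, 0.131 and 0.075 in WT cells and 0.126, 0.304 and 0.205 in MT. MT 2 and MT 3 lay above every WT library, while MT 1 lay just below WT 2, so the groups overlapped. With 95% Wilson intervals, which cover counting error only, WT 2 ranged from 0.0994 to 0.170, MT 1 from 0.0896 to 0.174 and MT 2 from 0.253 to 0.360. The mean was 0.0890 ± 0.0370 (SD, n = 3) for WT and, for MT, 0.212 ± 0.0892 (SD, n = 3), a difference of 0.123. This difference exceeded either SD, but it did not pass in limma after Benjamini-Hochberg adjustment over all events (adjusted p = 0.596). By a two-sided exact permutation test of this value alone, p was 0.2, where 3 against 3 libraries allow no p below 0.1. Within WT 1, WT 3 and MT 1, the level was 0.061 and 0.075 against 0.126, and within the other libraries 0.131 against 0.304 and 0.205. Without MT 2, the difference was 0.0765. The event had a mean of 251 junction reads, against a median of 118 over the tested events of the 9 genes. The study, with the rMATS model, counted a STAU1 splice variant among those shared by its isogenic mutant lines, HEK293T included. It also reported the altered STAU1 splicing by qPCR in these lines and in chronic lymphocytic leukemia cells with SF3B1 mutations. Those are other tests than limma and were not repeated here.

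Across the 9 genes, no event was called. Calls were made where the level differed by more than 0.1 in either direction and the adjusted p fell under 0.05. Of all 83581 tested events 26, or 0.0311%, were called, and 12 of them were alternative 3′ splice sites. Of the 154 members, 133 were tested, and the other 21 had the same level in every library. The count of events at p under 0.05 before adjustment was 6 of 133, beside 4.47% of all events, and their adjusted p was 0.856 in each but the STAU1 site. The 3 WT and 3 MT levels did not overlap in 4 of the 133, or 3.01%, where the share of all events was 5.46%. In 1 event they did not overlap and differed by more than 0.1, against 1.73% of all events. Each of these counts, taken over all event types, was near or below the share of all events. Of the 4 tested alternative 3′ splice sites of the 9 genes, 2 had p under 0.05 in limma before adjustment, beside 335 of all 5351. The same 2 differed by more than 0.1, beside 8.73% of all such sites. In none of the 4 were the levels without overlap, beside 9.29%.

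Differences over the 9 genes were small. The median absolute difference was 0.0107, against 0.0137 over all tested events, and 5 of 133 member events, or 3.76%, differed by more than 0.1, against 5.82% of all. MT had the higher mean level in 62 events and the lower in 67, and 4 were equal. The median SD of a level within a genotype was 0.0204, and 25 of the 133 differences exceeded their own SD. The 5 differences above 0.1 lay in STAU1, STAU2 and UPF3B. UPF1 stood at the other end, with 19 tested events between −0.0213 and 0.00700.

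**Figure D1:**
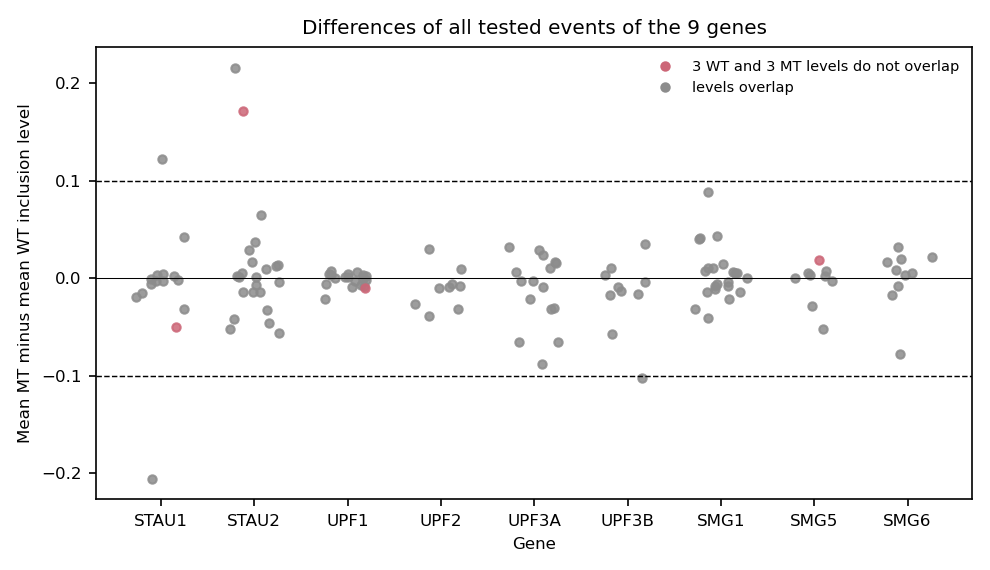
MT minus WT mean inclusion level (vertical axis, fraction) of the 133 tested events by gene (horizontal axis), 1 point per event, with horizontal positions spread at random. Dashed lines mark differences of 0.1 in either direction. The 4 events whose 3 WT and 3 MT levels do not overlap are red, and 5 points lie outside the dashed lines, 2 in STAU1, 2 in STAU2 and 1 in UPF3B.

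Exon skipping was rare in these genes apart from exons that the annotation already marks as variable. Of 94 tested skipped-exon events, 76 had a mean WT level over 0.9 and 9 a level under 0.1. In 61 events the exon was never skipped between its neighbors in an annotated transcript, and all 61 had a WT level over 0.9, with a median of 0.996 in the WT libraries and MT alike. In the 32 events with an annotated skipped form, the median level was 0.584 in each genotype. Exons whose length is a multiple of 3 (39 events) and other exons (55 events) had median absolute differences of 0.00800 and 0.00900.

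Before adjustment, p was under 0.05 in limma for 6 of the 133 tested events of the 9 genes, beside 4.47% of all tested events. STAU1 had 15 tested events, and 2 of them were among these 6. The second was a 75-base exon of the 5′ noncoding region at chr20:49174195-49174269, which 5 annotated transcripts include and 3 skip. Its levels were 0.939, 0.973 and 0.972 in WT cells and 0.922, 0.913 and 0.898 in MT, and the groups did not overlap. The difference was −0.0503 (limma, adjusted p = 0.856). The exact permutation p of 0.1, the smallest possible, follows from the lack of overlap and adds nothing to it. Few reads skipped the exon, 10, 3 and 3 in WT and 10 and 9 in MT 1 and MT 2. These are also the exclusion reads of the 289-base exon below, which had 15 in MT 3, so both events are not independent. The difference was −0.0335 within WT 1, WT 3 and MT 1 and −0.0675 within the other libraries. With another downstream neighbor, the 75-base exon had a level of 1 in every library. It lies before the start codon that most annotated transcripts share.

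The difference farthest below 0 among the 9 genes belonged to a 289-base STAU1 exon at chr20:49165997-49166285, which holds the start codon of 1 annotated transcript. Its levels were 0.310, 0.727 and 0.4 in the WT libraries and 0.310, 0.280 and 0.231 in MT. WT 2 stood apart from the other libraries, and WT 1 and MT 1 had the same level. The difference was −0.205 (limma, adjusted p = 0.856) and became −0.0813 without WT 2. It was −0.0450 within WT 1, WT 3 and MT 1 and −0.4715 within the other libraries. It rested on a mean of 17.7 reads, with 7 to 24 reads in a library. With other neighboring exons and 142 reads the same exon had levels of 0.051, 0.087 and 0.024 in WT cells and 0.048, 0.051 and 0.053 in MT, and these overlapped.

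The other STAU1 events varied little. The 3′ splice sites of another STAU1 exon lie 6 bp apart, and only the upstream site was used in all 6 libraries, at a level of 1, with no read of the downstream site in the 5 libraries whose reads could be recovered and a lowest Wilson bound of 0.982. The tested STAU1 event with the most reads, a coding exon of 147 bases at chr20:49119982-49120128, had a mean level of 1.00 in the WT libraries and 0.999 in MT over 393 reads. A 123-base noncoding exon at chr20:49179122-49179244 had levels of 0.099, 0.093 and 0.117 in WT cells and 0.098, 0.118 and 0.075 in MT, and the groups overlapped.

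**Figure D2:**
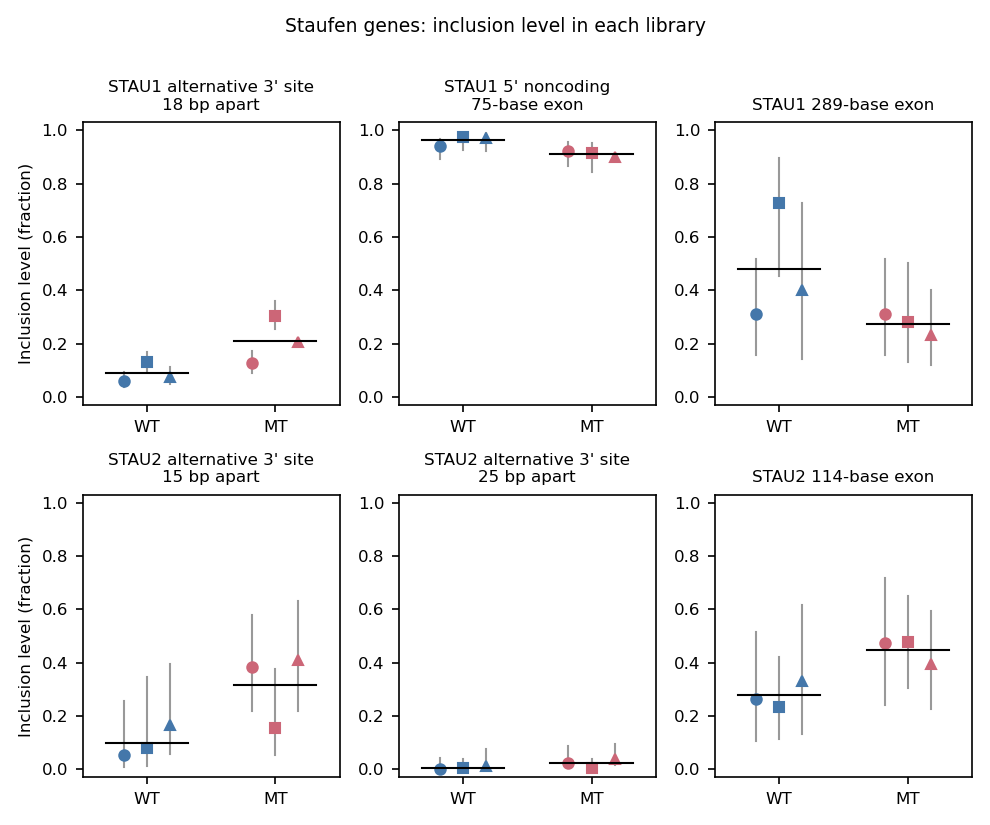
Inclusion level (vertical axis, fraction) of 6 events of STAU1 and STAU2 in the 3 WT (blue) and 3 MT (red) libraries, with circles, squares and triangles for libraries 1, 2 and 3. Gray bars are 95% Wilson intervals, drawn where the reads of a library could be recovered, and black lines are group means. The upstream STAU1 site has means of 0.0890 in the WT libraries and 0.212 in MT with narrow intervals, while the 15 bp STAU2 site and the 114-base STAU2 exon have wide ones.

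STAU2, the paralog of STAU1, lies on the minus strand at chr8:73420369-73747708. It had 23 tested events, of which 3 had p under 0.05 in limma before adjustment, beside 4.47% of all tested events. Among these 3 are the 15 bp site and a pair of exons, both given below, that count the same longer form. Which STAU2 exon corresponds to the STAU1 exon with the 18 bp choice was not determined here, and both STAU2 events with alternative 3′ splice sites are given. In the first, the sites lie 15 bp apart at chr8:73709163-73709177, before an exon that holds a start codon in some annotated transcripts. Its upstream site had levels of 0.055, 0.080 and 0.167 in WT cells and 0.383, 0.157 and 0.410 in MT. MT 1 and MT 3 lay above every WT library, and MT 2 lay below WT 3.

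The mean of the 15 bp STAU2 site was 0.101 ± 0.0588 (SD, n = 3) for WT and, for MT, 0.317 ± 0.139 (SD, n = 3). The difference of 0.216 was the highest among the 9 genes, with an adjusted p of 0.856 in limma and an exact permutation p of 0.2. It rested on few reads, 1 and 15, 1 and 10, and 3 and 13 in WT (upstream and downstream site), and 10 and 14, 3 and 14, and 8 and 10 in MT. The 95% Wilson intervals of WT 3, from 0.0577 to 0.396, and of MT 1, from 0.220 to 0.578, overlapped. Within WT 1, WT 3 and MT 1, MT exceeded WT by 0.272, and within the other libraries the level was 0.080 against 0.157 and 0.410.

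The exon behind this STAU2 site was also counted as a skipped exon in each of its forms. With the downstream site it had levels of 0.267, 0.281 and 0.213 in the WT libraries and 0.274, 0.366 and 0.231 in MT. With the upstream site the levels were 0.185, 0.212 and 0.123 in WT cells and 0.216, 0.291 and 0.206 in MT. The groups overlapped in both forms, with differences of 0.0367 and 0.0643 over 88.2 and 76.6 reads. The skipped-exon events of both forms share their exclusion reads. A pair of exons counted as mutually exclusive, which includes the longer form, had levels of 0, 0 and 0.009 in the WT libraries and 0.032, 0.009 and 0.054 in MT (limma, adjusted p = 0.856). Counted as a skipped exon, the other exon of this pair had mean levels of 0.988 or more in either genotype.

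In the second pair of STAU2 3′ sites, 25 bp apart at chr8:73615783-73615807, the upstream site was rare. Its levels were 0, 0.007 and 0.014 in WT cells and 0.025, 0.007 and 0.039 in MT, a difference of 0.0167 over 81.8 reads. In both STAU2 pairs the 20 bases before the upstream AG held fewer pyrimidines than those before the downstream AG, 12 against 15 and 11 against 15. In the STAU1 pair they held 15 against 14.

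The only event of the 9 genes that did not overlap and differed by more than 0.1 was a 114-base STAU2 coding exon at chr8:73527691-73527804, included in 1 and skipped in 3 annotated transcripts. Its levels were 0.263, 0.235 and 0.333 in the WT libraries and 0.474, 0.476 and 0.394 in MT. All 3 MT libraries lay above all 3 WT libraries. The difference was 0.171, with an adjusted p of 0.856 in limma. The exact permutation p of 0.1, the smallest possible, follows from the lack of overlap and adds nothing to it. Between 10 and 31 reads stood behind each library, and the interval of WT 3 ran from 0.134 to 0.617. The difference was 0.176 within WT 1, WT 3 and MT 1 and 0.2 within the other libraries.

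Another STAU2 exon, of 113 bases in the 5′ noncoding part at chr8:73739756-73739868, had levels of 0.887, 1 and 1 in WT cells and 0.878, 0.981 and 0.872 in MT. WT 1 lay among the MT libraries (difference −0.0520; limma, adjusted p = 0.856). The tested STAU2 event with the most reads was a coding exon of 136 bases at chr8:73673107-73673242, with means of 0.982 in the WT libraries and 0.995 in MT over 127 reads. Its difference of 0.0133 changed sign without WT 2.

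UPF1, the helicase, had 19 tested events with small differences. An 80-base UPF1 exon at chr19:18851050-18851129, whose length does not keep the frame, was nearly always skipped. Its levels were 0.005, 0.013 and 0.012 in WT cells and 0 in all 3 MT libraries, from 1, 4 and 2 inclusion reads in WT and 0 in MT. The groups did not overlap, but the intervals of MT reached up to 0.0333 (limma, adjusted p = 0.856). The difference was −0.00850 within WT 1, WT 3 and MT 1 and −0.0130 within the other libraries. The retained intron at chr19:18865289-18865778 had levels of 0.033, 0.046 and 0.032 in the WT libraries and 0.017, 0.043 and 0.023 in MT. The tested UPF1 event with the most reads, a pair of neighboring coding exons counted as mutually exclusive, had means of 0.434 in WT cells and 0.412 in MT over 374 reads, and its sign changed without MT 2.

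UPF1 also has an alternative 5′ splice site that adds 33 in-frame bases to a coding exon at chr19:18853072-18853104. The added bases make the form with a longer regulatory loop in the helicase core, which is known to act on other targets than the shorter form. The sites are shown because this is the known regulated choice in UPF1. Each window holds 12 exon and 12 intron bases on the plus strand, with the GT that begins the intron in capitals.
Upstream site, chr19:18853060-18853083: agactgactctgGTaatgaggatt
Downstream site, chr19:18853093-18853116: tttggttaagagGTgattttaagt
The form with the added bases had levels of 0.127, 0.159 and 0.094 in the WT libraries and 0.159, 0.133 and 0.091 in MT. The libraries of the genotypes were interleaved. Its means were 0.127 ± 0.0325 and 0.128 ± 0.0343 (SD, n = 3 each), a difference of 0.001 (limma, adjusted p = 0.999).

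UPF2, the bridge between UPF1 and the UPF3 proteins, had 9 tested events between −0.0390 and 0.0297. A 150-base coding exon at chr10:12001676-12001825 had levels of 1, 0.982 and 1 in WT cells and 0.983, 0.918 and 0.985 in MT. WT 2 lay just below MT 1 and MT 3, and the difference was −0.0320 (limma, adjusted p = 0.856). The largest UPF2 difference, −0.0390, belonged to a pair counted as mutually exclusive, and it became −0.0163 without MT 2. The levels of this pair were 1, 0.980 and 1 in the WT libraries and 0.971, 0.909 and 0.983 in MT. The tested UPF2 event with the most reads, another such pair, had means of 0.531 and 0.521 over 147 reads, and the sign of its difference changed without WT 1 or without MT 2. Counted as skipped exons, the exons of both pairs had mean levels of 0.962 or more in either genotype.

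UPF3A and UPF3B are paralogs that contact the exon junction complex. A 99-base UPF3A coding exon at chr13:114286302-114286400, which separates the long and the short UPF3A isoform, was included at 0.741, 0.711 and 0.854 in WT cells and at 0.810, 0.750 and 0.818 in MT. The groups overlapped, with a difference of 0.0240 over 61.3 reads. The same exon has an upstream 3′ splice site 43 bp away, which does not keep the frame. Its sites are shown as the only alternative 3′ splice sites among the members of the UPF and SMG genes. The AG is in capitals, in windows of 27 intron and 3 exon bases on the plus strand.
Upstream site, chr13:114286232-114286261: ggtcattattttccgaaatgaatgtAGtag
Downstream site, chr13:114286275-114286304: cttctggaacatgtttcctgttaaaAGgcc
The upstream site had levels of 0.168, 0.205 and 0.319 in the WT libraries and 0.146, 0.205 and 0.146 in MT, a difference of −0.0650 with overlap (limma, adjusted p = 0.856). Its direction was opposite to that of the STAU1 and STAU2 sites, over 25.6 reads. The 20 bases before the AG held 11 pyrimidines and 6 adenines upstream and 10 pyrimidines and 6 adenines downstream.

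The largest UPF3A difference belonged to a pair counted as mutually exclusive, with levels of 0.421, 0.244 and 0.264 in WT cells and 0.162, 0.291 and 0.211 in MT. The groups overlapped, and the difference of −0.0883 became −0.0327 without WT 1 and −0.0587 without MT 1. It was −0.1805 within WT 1, WT 3 and MT 1 and 0.00700 within the other libraries, so its sign differed between the sides. Counted as skipped exons, the exons of this pair had mean levels of 0.971 and 1 in WT cells and of 1 in MT. The tested UPF3A event with the most reads, a 161-base exon at chr13:114298840-114299000, had means of 0.928 in the WT libraries and 0.926 in MT over 108 reads, and its sign changed without WT 1 or without MT 2.

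In UPF3B, on the X chromosome, a 39-base in-frame coding exon at chrX:119840646-119840684 is included in 1 annotated transcript and skipped in 1. Its levels were 0.282, 0.099 and 0.095 in WT cells and 0.204, 0.053 and 0.179 in MT. WT 1 and MT 1 were among the highest, and the groups overlapped (difference −0.0133; limma, adjusted p = 0.949). A pair of UPF3B exons counted as mutually exclusive had the only difference above 0.1 outside the Staufen genes. Its levels were 0.705, 0.482 and 0.525 in the WT libraries and 0.688, 0.371 and 0.345 in MT, with a difference of −0.103 over 197 reads (limma, adjusted p = 0.856). Counted as skipped exons, both exons of the pair had a mean level of 1 in WT cells and of 0.984 and 0.991 in MT. In the level of the pair, MT 1 lay among the WT libraries. Leaving out MT 1 gave −0.213, and leaving out WT 1, MT 2 or MT 3 gave −0.0355, −0.0542 or −0.0412. The difference was 0.0730 within WT 1, WT 3 and MT 1 and −0.124 within the other libraries, so its sign followed the side of the first component. The tested UPF3B event with the most reads, an exon of 111 bases at chrX:119843191-119843301, had levels of 1 in every WT library and 0.961, 1 and 0.992 in MT.

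SMG1, the kinase, had 22 tested events between −0.0403 and 0.0883. SMG1 has near-identical pseudogene copies on chromosome 16 that can take or give reads, so its levels are uncertain. A 58-base exon at chr16:18899987-18900044 had the lowest mean level among the tested skipped exons of SMG1. With 48.4 reads its levels were 0.334, 0.456 and 0.360 in WT cells and 0.394, 0.364 and 0.409 in MT, and the groups were interleaved. With other neighboring exons and 10.8 reads, the same exon had levels of 0.735, 1 and 1 in the WT libraries and 1 in every MT library, the largest SMG1 difference at 0.0883. The tested SMG1 event with the most reads, an exon of 223 bases at chr16:18845429-18845651, had means of 0.996 and 0.982 over 172 reads.

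In SMG5, the adaptor, all 9 tested events had a mean WT level over 0.9. The largest difference, −0.0517, belonged to a 172-base exon at chr1:156266507-156266678, with levels of 0.929, 0.966 and 0.929 in WT cells and 0.948, 0.914 and 0.807 in MT. MT 3 alone stood below the rest, and the difference was −0.0103 without it and −0.0808 without MT 1. It was 0.0190 within WT 1, WT 3 and MT 1 and −0.1055 within the other libraries, so its sign differed between the sides. The form of this exon with the most SMG5 reads, 138 bases long, had levels of 0.962, 0.985 and 0.967 in the WT libraries and 0.971, 0.960 and 0.899 in MT. A 79-base exon at chr1:156272320-156272398 did not overlap between the genotypes, with 0.974, 0.955 and 0.966 in WT cells and 0.979, 0.984 and 0.989 in MT, a difference of 0.0190 (limma, adjusted p = 0.856). It was 0.00900 within WT 1, WT 3 and MT 1 and 0.0315 within the other libraries.

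In SMG6, the endonuclease, 10 events were tested, between −0.0773 and 0.0320. The lowest was a pair counted as mutually exclusive that also had the most SMG6 reads, 154. Its levels were 0.430, 0.405 and 0.478 in the WT libraries and 0.308, 0.436 and 0.337 in MT. MT 2 lay among the WT libraries. Leaving it out gave −0.115, and leaving out MT 1 gave −0.0512. The difference was −0.146 within WT 1, WT 3 and MT 1 and −0.0185 within the other libraries. Counted as skipped exons, the exons of this pair had mean levels of 0.984 and 1 in WT and of 1 in MT.

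**Figure D3:**
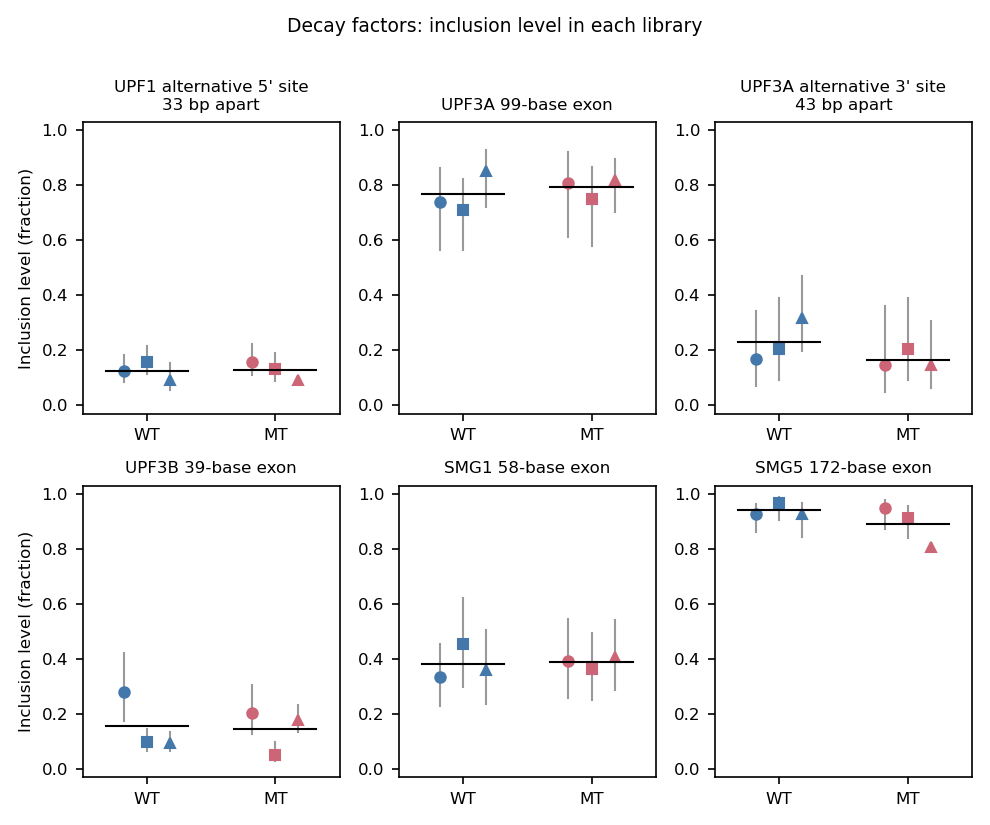
Inclusion level (vertical axis, fraction) of 6 events of UPF1, UPF3A, UPF3B, SMG1 and SMG5 in the 3 WT (blue) and 3 MT (red) libraries, with circles, squares and triangles for libraries 1, 2 and 3. Gray bars are 95% Wilson intervals where reads could be recovered, and black lines are group means. WT and MT levels overlap in all 6, and the mean of the UPF1 site is 0.127 in WT cells and 0.128 in MT.

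Large differences came with few reads in STAU2 but not in the STAU1 site. Among all tested events with 10 to 20 mean reads, the median absolute difference was 0.0513 and the 90th percentile 0.166. The same values were 0.00567 and 0.0350 for events with 160 to 320 reads. The 15 bp STAU2 site, at 18.3 reads, and the 289-base STAU1 exon lay above the 90th percentile of the first group, 2 of 7 member events there. The STAU1 site, at 0.123 with 251 reads, was 1 of 5 among 26 member events above that percentile in the second group. Over events of all depths, 13 of the 133 lay above the 90th percentile of their group, or 9.77%. These positions are descriptions and were not tested.

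**Figure D4:**
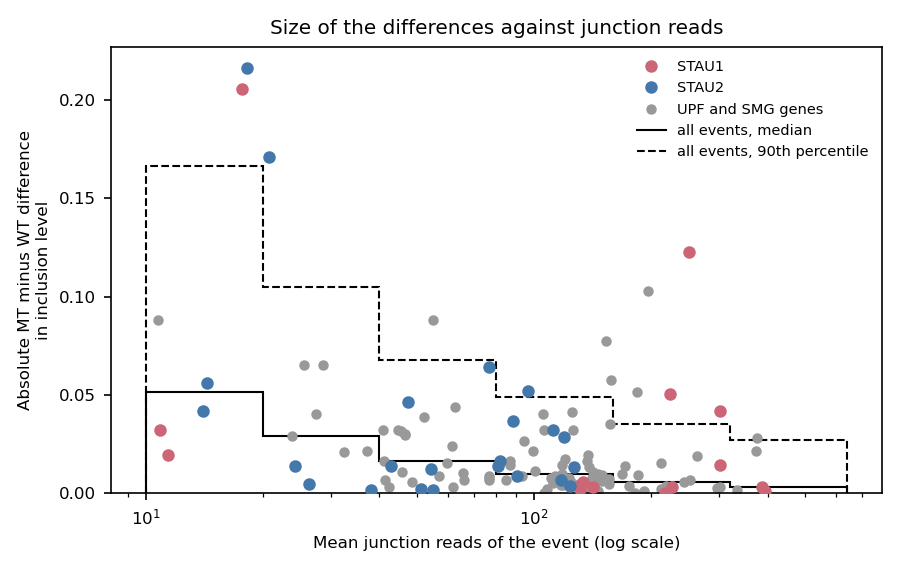
Absolute MT minus WT difference in inclusion level (vertical axis, fraction) against the mean junction reads of the event (horizontal axis, log scale) for the 133 tested events. Solid and dashed steps are the median and the 90th percentile of all tested events of like depth. The STAU1 site (red, 251 reads, 0.123) stands above its step, while the events near 0.2 have about 20 reads.

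The partners of these genes were read in the same fit. Among 21 genes of nonsense-mediated decay and the exon junction complex, such as the release factor ETF1, 201 events were tested and none was called. Of these, 8 had p under 0.05 before adjustment, and 3 lay wholly higher and 4 wholly lower in MT. Among those 7 were an exon of DCP1A, a decapping factor, with means of 0.980 and 0.931 in WT and MT, and a 5′ splice site of SMG9, a regulator of SMG1, with 0.0530 and 0.0277. Among 13 genes of proteins with double-stranded RNA binding domains, 208 events were tested and none was called. There, 18 had p under 0.05, and 8 lay wholly higher and 7 wholly lower. Of all tested events, 4.47% had p under 0.05 before adjustment. The share that did not overlap was 7.21%, against 3.48% in the first list and 5.46% of all events.

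Retained introns of ADARB1 and DGCR8 were among these 15 events. In ADARB1, an RNA-editing enzyme, the intron level was 0.6, 0.742 and 0.795 in WT cells and 1, 0.897 and 0.842 in MT, over 25.4 reads. In DGCR8, the partner of Drosha, it was 0.506, 0.455 and 0.530 in the WT libraries and 0.333, 0.340 and 0.428 in MT. The adjusted p in limma was 0.856 for both. The ADARB1 intron had the higher mean level in MT and the DGCR8 intron the lower.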

How the data were processed

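RNA-Seq of 3 WT and 3 MT HEK293T samples was compared. The submitters' processing notes name STAR, StringTie and GRCh38, and Methods the rMATS model. The authors' deposited inclusion levels are a fraction per event and library. The table lists 6 MT values per event although the labels name 3 MT samples. Those with a column of their own, at list positions 1, 2 and 6, served as MT 1, MT 2 and MT 3, and whether they are the labeled samples is not settled. Mean reads average the authors' means of WT and of all 6 MT values. The authors' p-values, adjusted p-values, level differences and calls, and the DRIP peak lists, were not used.

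Of 114349 events, 104650 had 6 levels and 94005 of those at least 10 mean reads. Another 10424 had the same level in all libraries, which left 83581. Levels were compared by limma 3.58.1 (R 4.3.3), two-sided, after an arcsine square-root transform, with a variance trend on log mean reads and Benjamini-Hochberg adjustment over all tested events. The fit was tested on simulated data. Library reads were used only where they gave the deposited level within 0.001. Event edges lay on GENCODE exon edges in 981 of 988 cases (99.3%). Alternatives were a logit with an offset of 0.01, untransformed levels, no variance trend, a minimum of 20 reads or none, and leaving out each library.

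Members, lists and tests were chosen with earlier results of these data known. Named by rule were, for each gene, the tested event with the most reads and that with the largest difference, events without overlap that differed by over 0.1, the STAU1 site, and the 3 widest differences without overlap of each partner list. Of these, 1 event of each partner list is not reported here. Other events, with p under 0.05, without overlap, with alternative splice sites or of intermediate level, were named after their values were seen.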

Additional observations from a re-analysis of the deposited data

How the results depend on the processing

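No event of the 9 genes was called under any alternative. Of all tested events, 26 were called, 3 with the logit, 0 with untransformed levels and 0 without the variance trend, and 3 to 13 when 1 library was left out. With the side of the first component as a covariate, an alternative chosen after the libraries were seen, 51 of all events were called and none of the 9 genes. The difference of the STAU1 site stayed positive when each library was left out, from 0.0765 to 0.166, with adjusted p from 0.595 to 0.894 over its alternatives. The other alternatives leave the difference of mean levels as it is, so its sign could change only when a library was left out. Among the other 17 named events, 6 such values reversed, in 4 events. These lay in the STAU2 136-base exon (−0.00467 to 0.0223), the UPF1 pair (−0.0517 to 0.0103), the UPF2 pair with the most reads (−0.0465 to 0.0523) and the UPF3A 161-base exon (−0.0393 to 0.0352), and the cause was not tested. No paired analysis was possible because the MT columns carry no settled replicate number. Depth limits the 15 bp STAU2 site and the 114-base STAU2 exon, where 10 to 31 reads in a library give 95% intervals wider than the difference, and events with still fewer reads, such as the 289-base STAU1 exon.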
